A study of Homo sapiens with 8 samples.

Results

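The response of SW1990 cells to GSK-LSD1 was read from 4 RNA-seq libraries, 2 from vehicle-treated cells (Vehicle) and 2 from cells given GSK-LSD1, of the 8 libraries in the series. The 4 libraries were taken by the deposited column names, and all genes of the table entered. SW1990 is an established human pancreatic cancer cell line, and GSK-LSD1 is a small-molecule inhibitor of the histone demethylase LSD1. The labels of the 4 libraries name SW1990 cells and no construct, and the titles of the treated libraries give a dose of 2000 uM. The authors' legend for this RNA-seq names SW1990-luc cells, which their methods describe as carrying a luciferase label. The time of exposure, the solvent and whether the paired libraries came from separate cultures are not given in the labels, so every p-value below measures only the spread between these libraries, which may be technical. The other 4 libraries hold SW1990 cells with an empty vector or with EBF2 overexpression, and they enter only 1 alternative fit.

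LSD1, encoded by KDM1A, removes methyl groups from mono- and dimethylated lysine 4 of histone H3, and with the scaffold RCOR1 and the deacetylases HDAC1 and HDAC2 it forms the CoREST repressor complex. Its inhibitors are best known for inducing myeloid differentiation genes in leukaemia cells, where they also displace LSD1 from the repressors GFI1 and GFI1B. The opposing reaction, addition of methyl groups to the same lysine, is carried out by the KMT2 enzymes within COMPASS complexes.

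Counts per gene totalled 24891036 and 27054876 in the Vehicle libraries and 22920307 and 22581935 in the GSK-LSD1 libraries. Levels are given as CPM, counts scaled to the same library total after correction by the TMM factor of each library, which allows for a shift in composition. Of the 38637 genes in the table, 16059 had enough counts to be tested. KDM1A itself (chr1:23019443-23083691 in hg38, the human genome build of the files) had 266 and 232 CPM in Vehicle and 213 and 216 CPM in GSK-LSD1. The groups did not overlap, but the difference was small (log2 fold change -0.22 ± 0.0644 (SE), edgeR adjusted p = 0.0403) and did not reach the fold limit. The duct epithelial keratins KRT7, KRT8 and KRT18 and the mucin MUC1 were abundant, whereas CDH1 had 37 to 57 counts per library, EPCAM 4 to 20 and KRT19 0 to 21, so some defining epithelial markers were at or near 0 in all 4 libraries. The 10 duct markers summed to 5740.5 and 5523 CPM in Vehicle and 4375 and 4314 CPM in GSK-LSD1. None of the 12 acinar and islet markers was detected well enough to be tested, while 10 of 10 fibroblast markers were, at a sum of 144 to 164 CPM, 4 of 10 leukocyte markers were, at a sum of 14.2 to 19.5 CPM, and 6 of 8 endothelial markers were, at a sum of 123 to 144 CPM, of which CDH5 was the only call (log2 fold change -0.97). The part of such markers in the results was not tested.

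A gene was called up or down where edgeR's quasi-likelihood test gave a Benjamini-Hochberg adjusted p under 0.05 and the fold change exceeded 1.5. On these limits 406 genes (2.53% of those tested) rose and 328 (2.04%) fell, 734 genes (4.57%) in all. The median log2 fold change of all tested genes was -0.0059, and 182 of the upregulated and 115 of the downregulated genes differed by more than 2-fold. The GSK-LSD1 libraries both lay above the Vehicle libraries for 404 of the 406 upregulated genes, and both below for all 328 downregulated genes, against 30.0% and 30.2% of all tested genes in those directions. At any fold, 9.86% of tested genes passed the adjusted p with a higher and 8.87% with a lower level, and 49.0% of all log2 fold changes lay above 0 and 51.0% below. Protein-coding genes made up 337 of the upregulated and 234 of the downregulated genes, and long noncoding RNAs 62 and 73. Fitted together with the other 4 libraries, whose spread is then shared, only 85 genes were up and 15 down. The number of calls thus depends strongly on which libraries enter the fit. That fit also redid the filter and the scaling, and the cause of the drop was not tested. The calls also rested on single libraries. Leaving out any 1 library lost reported genes in both directions. The loss was a larger share of the downregulated genes, except without Vehicle replicate 2.

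The gene with the smallest p was FOLR1 (chr11:72189709-72196323), which encodes folate receptor alpha, a cell-surface protein that brings folate into epithelial cells. It had 1854 and 1870.3 CPM in Vehicle and 4788 and 4709.6 CPM in GSK-LSD1, log2 fold change 1.35 ± 0.032 (SE), edgeR adjusted p = 5.42e-09. It was already abundant in Vehicle, and replicate libraries differed far less than the groups. GPNMB (chr7:23246766-23275110), a glycoprotein of lysosomes and melanosomes, had the largest change among the 15 upregulated genes of smallest p, with 11.5 and 12.7 CPM in Vehicle and 68.8 and 63.8 CPM in GSK-LSD1 and log2 fold change 2.45 ± 0.0823 (SE), edgeR adjusted p = 5.36e-08. PTGDS, which makes prostaglandin D2, had 30.97 and 32.1 CPM in Vehicle and 82.9 and 86.6 CPM in GSK-LSD1, log2 fold change 1.43 ± 0.0636 (SE), edgeR adjusted p = 5.35e-07. CFB, a protease of the alternative complement pathway, had 27.5 and 25.9 CPM in Vehicle and 69.9 and 77.2 CPM in GSK-LSD1, log2 fold change 1.46 ± 0.0736 (SE), edgeR adjusted p = 1.38e-06. In each of these genes both treated libraries lay above both controls, as the rule for naming them required. CFD, the protease that cleaves factor B, fell in the same cells (log2 fold change -1.38 ± 0.173 (SE), edgeR adjusted p = 0.000448), with 125 and 76.8 CPM in Vehicle and 38.3 and 39.3 CPM in GSK-LSD1. Of 16 tested complement genes, a list written after values were seen, these were the only members called, 1 in each direction. Over all tested genes 2.53% rose and 2.04% fell. BEST1, a chloride channel gene, also ranked among the smallest p values (log2 fold change 0.95 ± 0.0389 (SE), edgeR adjusted p = 3.03e-07), but it overlaps the ferritin heavy chain gene FTH1 on the opposite strand. The counting is not stated to use strand, so reads of BEST1 and FTH1 cannot be told apart, and FTH1 itself had 4049 and 2327 CPM in Vehicle and 4403 and 4294 CPM in GSK-LSD1, where the Vehicle libraries disagree and the difference was not significant (edgeR adjusted p = 0.102).

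The clearest pattern concerned cholesterol. Cells make cholesterol from acetyl-CoA through the mevalonate pathway and the sterol ring-modifying enzymes and also take it up from outside. When sterols in the endoplasmic reticulum are low, the SREBP transcription factors, held back by INSIG1 when sterols are plentiful, are released and switch on both arms. Of the 20 sterol synthesis genes, 17 rose and none fell (85% against the 2.53% of all tested genes), with a median log2 fold change of 0.88, and in all 20 both GSK-LSD1 libraries lay above both Vehicle libraries. The 20 genes together summed to 2224 and 2217 CPM in Vehicle and 3736 and 3709.7 CPM in GSK-LSD1.

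At the entrance of the pathway, ACAT2, which joins acetyl-CoA units, had 87.8 and 84.9 CPM in Vehicle and 164 and 161 CPM in GSK-LSD1, log2 fold change 0.91 ± 0.0502 (SE), edgeR adjusted p = 2.14e-06. HMGCS1, the synthase that makes HMG-CoA, had 106 and 114 CPM in Vehicle and 334 and 302 CPM in GSK-LSD1, log2 fold change 1.53 ± 0.063 (SE), edgeR adjusted p = 3.03e-07. The synthase had the larger fold, and in both the groups were apart. Among the mevalonate kinases and the isoprenoid enzymes, MVK (0.88), MVD (0.79), IDI1 (1.22) and FDPS (0.77) rose by the log2 fold changes in parentheses, and PMVK (0.25) did not reach the fold limit. The committed steps to squalene and its epoxide followed. FDFT1 had 283 and 284 CPM in Vehicle and 540.2 and 523 CPM in GSK-LSD1, log2 fold change 0.91 ± 0.0457 (SE), edgeR adjusted p = 1.38e-06, and SQLE had 57.7 and 54.97 CPM in Vehicle and 118 and 125 CPM in GSK-LSD1, log2 fold change 1.11 ± 0.0584 (SE), edgeR adjusted p = 1.7e-06. Replicates of both genes were close together and the groups apart.

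Of the later ring-modifying enzymes, TM7SF2, a sterol reductase of low abundance, showed the largest change of the list, with 7.69 and 7.10 CPM in Vehicle and 24.9 and 20.98 CPM in GSK-LSD1 and log2 fold change 1.63 ± 0.119 (SE), edgeR adjusted p = 1.51e-05. MSMO1, the C4 sterol oxidase, had 27.4 and 29.5 CPM in Vehicle and 67.6 and 70.8 CPM in GSK-LSD1, log2 fold change 1.28 ± 0.0686 (SE), edgeR adjusted p = 1.84e-06. The other enzymes called were LSS (0.88), CYP51A1 (0.80), HSD17B7 (1.01), EBP (0.68), SC5D (0.67) and DHCR7 (0.96), again with log2 fold changes in parentheses. NSDHL, a sterol dehydrogenase, was among the members not called (62.3 and 58.3 against 77.5 and 78.03 CPM, log2 fold change 0.37). The 17 calls became 15 when the other 4 libraries entered the fit, and 16 or 17 when any 1 library was left out.

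Of 12 tested genes of sterol uptake and its control, 4 rose and none fell, against 2.53% and 2.04% of all tested genes. INSIG1, the sterol-sensing retention protein and itself an SREBP target, had 96.2 and 77.7 CPM in Vehicle and 163 and 169.9 CPM in GSK-LSD1, log2 fold change 0.94 ± 0.0832 (SE), edgeR adjusted p = 5.29e-05. The cholesterol carriers STARD4 (0.89) and NPC2 (0.62) rose as well, by the log2 fold changes in parentheses. The transcripts of the regulators themselves moved little. SREBF1 had a log2 fold change of 0.17 and SREBF2 of 0.17, and none of the 7 tested cholesterol export genes was called, among them ABCA1 (0.21) and ABCG1 (0.32). Without GSK-LSD1 replicate 1, NPC2 was at 0.58 and no longer passed.

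Fatty acid synthesis moved the same way in part. SREBP-1 and the carbohydrate-response factor MLXIPL drive this pathway, in which acetyl-CoA is made by ACLY or ACSS2, carboxylated by ACACA, built into palmitate by FASN and desaturated by SCD. Of 23 tested genes 7 rose and none fell (2.53% and 2.04% of all tested genes did), with a median log2 fold change of 0.41. SCD, the stearoyl-CoA desaturase, had the second smallest p among the upregulated genes, with 734 and 733 CPM in Vehicle and 1699 and 1723 CPM in GSK-LSD1 and log2 fold change 1.22 ± 0.0381 (SE), edgeR adjusted p = 3.34e-08. ACSS2, which activates acetate, had 54.8 and 49.5 CPM in Vehicle and 144 and 152 CPM in GSK-LSD1, log2 fold change 1.505 ± 0.0633 (SE), edgeR adjusted p = 3.27e-07. FASN had 1528 and 1397 CPM in Vehicle and 2537 and 3029 CPM in GSK-LSD1, log2 fold change 0.93 ± 0.0713 (SE), edgeR adjusted p = 2.19e-05. Replicates differed most for FASN, yet its groups did not overlap. ACSL1, which activates long-chain fatty acids, had the largest change of the list at a low level (7.89 and 7.43 against 26.8 and 24.2 CPM, log2 fold change 1.74), and MLXIPL (1.28), LPIN1 (0.69) and ACSL5 (0.75) completed the calls. ACLY (0.57) and ACACA (0.48) were higher in both treated libraries without reaching the fold limit. ACSL5 lost its call without either GSK-LSD1 library, and 4 members were called when the other 4 libraries entered the fit.

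**Figure D1:**
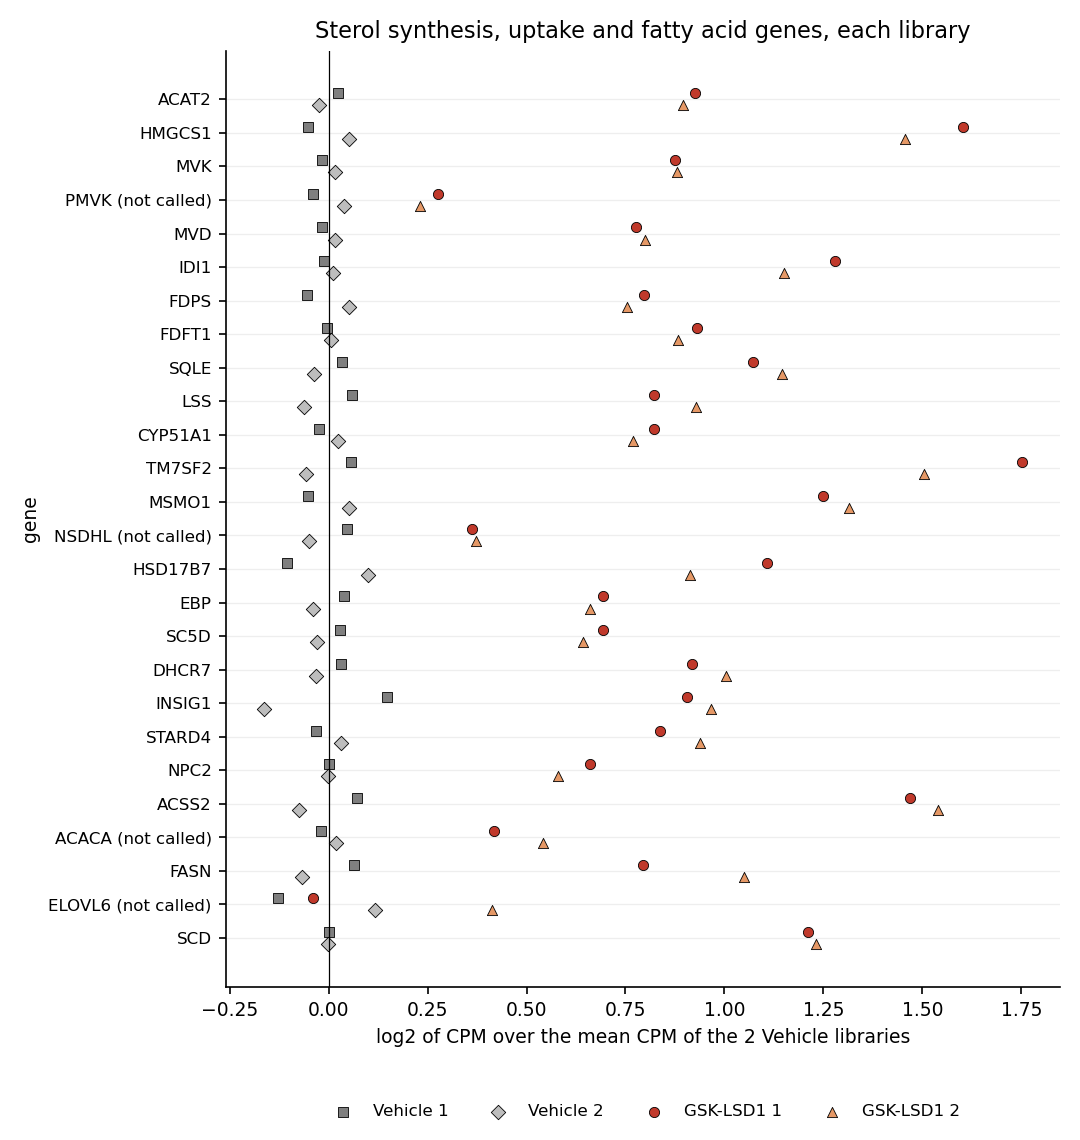
Each row is a gene, in pathway order from ACAT2 to DHCR7, then uptake genes, then fatty acid genes, and each symbol is 1 library, placed by the log2 ratio of its CPM to the mean of the Vehicle libraries. In every row except ELOVL6, where the groups overlap, both GSK-LSD1 libraries lie to the right of both Vehicle libraries.

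The promoters of these genes were searched for a few elements. NF-Y binds the letters CCAAT and acts with SREBP at many sterol genes. In the window from 250 bases before to 50 after the RefSeq start, CCAAT on either strand was present in 12 of the 15 sterol synthesis promoters with an entry (80%), in 42.9% of 21 fatty acid synthesis promoters and in 36.3% of all 11983 tested genes with one. It was also present in 73.7% of 38 promoters of mitosis genes, a list with no upregulated member. A strict form of the sterol regulatory element, TCACNCCAC on either strand, was found in none of the 15 and in 1.12% of all. The stretches below run 5′ to 3′ on the gene's strand in GRCh38.p14, with every CCAAT or its complement ATTGG in capitals, and are shown because these genes rose together. They lie at chr12:109573572-109573764, plus strand for MVK, chr5:43313496-43313579, minus strand for HMGCS1, chr1:155308678-155308831, plus strand for FDPS, chr16:88663160-88663262, minus strand for MVD, chr4:165327472-165327651, plus strand for MSMO1 and chr10:100346992-100347063, plus strand for SCD.
MVK: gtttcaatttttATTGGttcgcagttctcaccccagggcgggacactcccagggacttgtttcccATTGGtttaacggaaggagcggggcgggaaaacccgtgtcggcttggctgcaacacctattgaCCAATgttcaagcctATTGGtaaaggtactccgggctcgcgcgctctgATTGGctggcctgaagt
HMGCS1: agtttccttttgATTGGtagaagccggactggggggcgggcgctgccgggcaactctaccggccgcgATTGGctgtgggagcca
FDPS: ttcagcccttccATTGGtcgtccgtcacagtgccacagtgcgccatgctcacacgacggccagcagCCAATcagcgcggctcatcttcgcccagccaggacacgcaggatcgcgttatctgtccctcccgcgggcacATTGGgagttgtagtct
MVD: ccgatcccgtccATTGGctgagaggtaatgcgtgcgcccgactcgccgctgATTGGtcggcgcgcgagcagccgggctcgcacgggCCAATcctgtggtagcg
MSMO1: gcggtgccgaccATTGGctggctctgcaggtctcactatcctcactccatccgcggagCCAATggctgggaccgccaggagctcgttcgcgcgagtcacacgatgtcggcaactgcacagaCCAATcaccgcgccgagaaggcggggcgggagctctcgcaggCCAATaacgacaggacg
SCD: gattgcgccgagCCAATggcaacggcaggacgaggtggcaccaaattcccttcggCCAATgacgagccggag
MVK carries 5 such elements within 250 bases, MSMO1 has 4, FDPS and MVD have 3 each, and HMGCS1 and SCD have 2 each. The letters describe the sequence only, and nothing in these data measures binding.

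Lysosomal genes were higher as a group, with few members past the fold limit. Lysosomes digest proteins, lipids and glycans with acid hydrolases, and the factors TFEB, TFE3 and MITF activate many of these genes through an E-box. Of 34 tested hydrolase genes 4 rose and none fell (2.53% and 2.04% of all tested genes did). Of the 34, 28 had a log2 fold change above 0, against 49.0% of all tested genes. At any fold, 19 passed an adjusted p of 0.05, where 9.86% of all tested genes did so with a higher and 8.87% with a lower level. CTSD, the aspartic protease cathepsin D, had 507 and 479.7 CPM in Vehicle and 782 and 844 CPM in GSK-LSD1, log2 fold change 0.72 ± 0.051 (SE), edgeR adjusted p = 1.23e-05. NEU1, a sialidase, had 32.2 and 33.1 CPM in Vehicle and 57.1 and 61.8 CPM in GSK-LSD1, log2 fold change 0.86 ± 0.0688 (SE), edgeR adjusted p = 2.75e-05. The cysteine protease CTSL (0.62) and the acid ceramidase ASAH1 (0.70) were the others. The hydrolases summed to 4335 and 4247 CPM in Vehicle and 5348 and 5470.0 CPM in GSK-LSD1. Of 32 membrane, proton pump and regulator genes, GPNMB and the tetraspanin CD63 rose (361 and 338 against 526 and 527 CPM, log2 fold change 0.59 ± 0.0486 (SE), edgeR adjusted p = 3.2e-05) and 27 had a value above 0. LAMP1, a structural membrane protein of the lysosome, had 255 and 258 against 311 and 323 CPM (log2 fold change 0.31). The transcripts of TFEB (-0.033), TFE3 (0.048) and MITF (-0.066) were near 0 in difference, and none of 22 autophagy genes was called. CD63 lay just above the fold limit and was at 0.54 without Vehicle replicate 2.

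The E-box CACGTG, which reads the same on both strands, was present in 5 of 20 hydrolase promoters (25%) and 10 of 26 membrane, pump and regulator promoters (38.5%), against 9.91% of all promoters. Among all upregulated genes the share was 7.57%. The element, in capitals, with its surroundings is shown for the called genes CTSD (chr11:1763957-1763986, minus strand), NEU1 (chr6:31862930-31862959, minus strand) and CD63 (chr12:55729172-55729201, minus strand), where it starts 47, 126 and 180 bases before the start.
CTSD: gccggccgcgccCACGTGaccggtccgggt
NEU1: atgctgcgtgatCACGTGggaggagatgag
CD63: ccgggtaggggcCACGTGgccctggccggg

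Endoplasmic reticulum chaperones showed a small and even shift. These proteins fold secreted and membrane proteins, and their genes respond together to unfolded protein through the factors ATF6 and XBP1. Of 27 genes 3 rose and none fell (2.53% and 2.04% of all tested genes did). However, 26 had a log2 fold change above 0, against 49.0% of all tested genes. In 24 both treated libraries lay above both controls, against 30.0% of all tested genes, and the median was 0.32. CALR, the lectin chaperone calreticulin, had 853 and 835 CPM in Vehicle and 1264 and 1294 CPM in GSK-LSD1, log2 fold change 0.60 ± 0.0397 (SE), edgeR adjusted p = 8.29e-06. HSPA5, the HSP70 of the reticulum, had 596 and 586 CPM in Vehicle and 889 and 889.8 CPM in GSK-LSD1, log2 fold change 0.59 ± 0.0411 (SE), edgeR adjusted p = 1.12e-05. PDIA6, a disulfide isomerase, had 193 and 199 CPM in Vehicle and 303 and 306 CPM in GSK-LSD1, log2 fold change 0.64 ± 0.0485 (SE), edgeR adjusted p = 2.08e-05. HSP90B1 was higher in both treated libraries (625 and 625 against 907 and 865 CPM) but under the fold limit (log2 fold change 0.50). All 3 calls sat close to the limit, and without Vehicle replicate 2 CALR was at 0.58 and HSPA5 at 0.57, leaving 1 call.

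The ER stress response element, CCAAT followed after 9 bases by CCACG, on either strand (so that each match also holds a CCAAT), was found in 6 of 24 promoters of the list (25%) and in 13 of 11983 overall (0.108%). It is given in capitals for HSPA5 (chr9:125241379-125241421, minus strand), CALR (chr19:12938372-12938414, plus strand) and HSP90B1 (chr12:103930204-103930351, plus strand), the last with 2 copies.
HSPA5: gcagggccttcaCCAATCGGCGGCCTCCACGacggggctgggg
CALR: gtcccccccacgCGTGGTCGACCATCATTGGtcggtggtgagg
HSP90B1: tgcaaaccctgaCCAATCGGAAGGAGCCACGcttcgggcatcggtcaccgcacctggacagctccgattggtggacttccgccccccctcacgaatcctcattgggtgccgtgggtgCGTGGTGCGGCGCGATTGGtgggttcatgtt

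The amino acid response, driven by ATF4 when amino acids run short or the reticulum is stressed, was called for 6 of 31 genes, all up, with a median of 0.14. Over all tested genes 2.53% rose. ASNS, asparagine synthetase, had 13.2 and 12.8 CPM in Vehicle and 21.9 and 20.3 CPM in GSK-LSD1, log2 fold change 0.70 ± 0.0972 (SE), edgeR adjusted p = 0.00085. DDIT3, the stress factor CHOP, had 6.68 and 7.40 CPM in Vehicle and 12.04 and 12.6 CPM in GSK-LSD1, log2 fold change 0.81 ± 0.118 (SE), edgeR adjusted p = 0.00117, and it overlaps MARS1 on the opposite strand. The others were the cystine transporter SLC7A11 (0.74), the secreted glycoprotein STC2 (0.61), the stress protein NUPR1 (0.59) and the peptide ADM2 (1.18). STC2 lost its call without GSK-LSD1 replicate 2 (0.57) and NUPR1 without GSK-LSD1 replicate 1 (0.55). None of 20 tRNA synthetase genes, a further group of ATF4 targets, was called, and none of the 6 calls held in the fit over all 8 libraries. The C/EBP-ATF response element TGATGNAA, on either strand, was present in 15.4% of 26 promoters of the list against 1.71% of all, and is given in capitals for ASNS (chr7:97872457-97872488, minus strand).
ASNS: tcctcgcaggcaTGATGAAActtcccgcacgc

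Genes under NRF2, the sensor of electrophiles and oxidants, followed. Of 30 tested targets 7 rose and none fell (2.53% and 2.04% of all tested genes did). Of the 30, 28 were above 0 (49.0% of all tested genes were), and the median was 0.38. FTL, the ferritin light chain that stores iron, had 839.8 and 848 CPM in Vehicle and 1346 and 1316 CPM in GSK-LSD1, log2 fold change 0.66 ± 0.039 (SE), edgeR adjusted p = 3.66e-06. The aldo-keto reductases AKR1C1, AKR1C2 and AKR1C3 reduce steroids and reactive carbonyls. AKR1C3 had 56.2 and 48.6 CPM in Vehicle and 93.5 and 103 CPM in GSK-LSD1, log2 fold change 0.91 ± 0.0784 (SE), edgeR adjusted p = 4.23e-05, while AKR1C1 (1.497) and AKR1C2 (1.61) started lower and changed by larger log2 folds. These 3 genes are near-identical copies, and reads shared between them make each value uncertain. SLC7A11 was counted here too (37.2 and 36.2 against 61.5 and 61.2 CPM), and PIR (0.64) and OSGIN1 (0.95) were the remaining members. The textbook targets NQO1 (0.27), HMOX1 (0.57), GCLM (0.35) and TXNRD1 (0.39) had higher levels in both treated libraries and stayed under the fold limit. With all 8 libraries in the fit, 1 of the 7 was called.

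The UGT1A enzymes attach glucuronic acid to bilirubin, hormones and drugs. All 9 UGT1A entries rose, with log2 fold changes from 1.62 to 1.85, but the entries share their last exons and held nearly the same counts, so they stand for 1 measurement of low depth rather than 9. UGT1A1 had 11 and 13 counts in the Vehicle libraries against 39 and 37 in the GSK-LSD1 libraries and UGT1A6 had 16 and 22 counts in the Vehicle libraries against 50 and 52 in the GSK-LSD1 libraries. Both treated libraries had more counts than both controls, and with all 8 libraries in the fit none of the 9 was called.

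KLLN, a p53-inducible nuclear protein gene, had 15.3 and 17.1 CPM in Vehicle and 25.8 and 27.1 CPM in GSK-LSD1, log2 fold change 0.70 ± 0.0937 (SE), edgeR adjusted p = 0.000639. Its groups did not overlap. CDKN1A, the cell-cycle inhibitor p21 and a p53 target, had 158 and 157 CPM in Vehicle and 269.8 and 269 CPM in GSK-LSD1, log2 fold change 0.77 ± 0.048 (SE), edgeR adjusted p = 4.94e-06. With RRM2B (0.63), these were the 3 of 30 tested p53 targets that rose, and none fell. Over all tested genes 2.53% rose and 2.04% fell. KLLN and CDKN1A were not called in the fit over 8 libraries (edgeR adjusted p = 0.162 and 0.162), and RRM2B was not called without GSK-LSD1 replicate 2.

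Among NF-kB targets, cytokines and chemokines 4 of 26 rose and 1 fell, against 2.53% and 2.04% of all tested genes. SOD2, the mitochondrial superoxide dismutase, had 109.9 and 114 CPM in Vehicle and 178 and 178 CPM in GSK-LSD1, log2 fold change 0.67 ± 0.0494 (SE), edgeR adjusted p = 1.67e-05, but it overlaps ACAT2, which rose, on the opposite strand. BIRC3, an inhibitor of apoptosis, had 5.22 and 5.79 CPM in Vehicle and 14.1 and 13.97 CPM in GSK-LSD1, log2 fold change 1.35 ± 0.119 (SE), edgeR adjusted p = 5.07e-05. The cytokine IL6 and the chemokine CXCL1 were scarce, IL6 with 32 and 36 counts in the Vehicle libraries against 75 and 59 in the GSK-LSD1 libraries and CXCL1 with 3 and 11 counts in the Vehicle libraries against 21 and 24 in the GSK-LSD1 libraries. LCN2, an iron-carrying lipocalin, fell (-0.89). LCN2 was no longer called without either GSK-LSD1 library, CXCL1 without GSK-LSD1 replicate 1, GSK-LSD1 replicate 2 or Vehicle replicate 1, nor IL6 without GSK-LSD1 replicate 1 (edgeR adjusted p = 0.0854).

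Several of the largest folds came from genes with few counts in Vehicle, although GPNMB, described above, was among the largest at a higher level. KCNJ11, a potassium channel subunit, had 1 and 2 counts in the Vehicle libraries against 25 and 25 in the GSK-LSD1 libraries, which is at least 9.53-fold higher if the Vehicle libraries are set to a floor of 3 counts each. PLA2G3, a secreted phospholipase A2, had 10 and 7 counts in the Vehicle libraries against 66 and 67 in the GSK-LSD1 libraries, log2 fold change 3.14 ± 0.315 (SE), edgeR adjusted p = 0.000116. PRDM16, a zinc finger factor of brown fat and stem cells, had 14 and 20 counts in the Vehicle libraries against 83 and 96 in the GSK-LSD1 libraries, log2 fold change 2.59 ± 0.253 (SE), edgeR adjusted p = 0.000101. In each gene the treated libraries lay close together. TSPAN19 (2.40), SMPDL3B (2.38), the secreted protein gene FGL1 (2.26) and FAM9B (2.23) also rose, and so did the chloride transporter gene SLC12A8 from a higher level (6.11 and 4.47 against 19.7 and 20.5 CPM, log2 fold change 1.93).

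Some genes whose products are best known from the placenta also rose. This list was drawn up after some of its members had been seen among the calls, so its count describes and does not test. Of 16 tested members 7 rose, none fell and 9 were not called, where 2.53% of all tested genes rose and 2.04% fell. CGA, the shared alpha subunit of the glycoprotein hormones, had 16.96 and 19.7 CPM in Vehicle and 50.6 and 59.1 CPM in GSK-LSD1, log2 fold change 1.58 ± 0.0973 (SE), edgeR adjusted p = 4.85e-06. ERVV-2, an endogenous retroviral envelope gene, had 1.90 and 2.27 CPM in Vehicle and 9.63 and 10.2 CPM in GSK-LSD1, log2 fold change 2.24 ± 0.156 (SE), edgeR adjusted p = 1.12e-05. PEG10, an imprinted gene of retrotransposon origin, had 83.6 and 83.8 CPM in Vehicle and 130.0 and 138 CPM in GSK-LSD1, log2 fold change 0.68 ± 0.0535 (SE), edgeR adjusted p = 2.66e-05. In all 3 both treated libraries lay above both controls. PLAC4 (40.2 and 45.01 against 104 and 109 CPM, log2 fold change 1.32) lies opposite BACE2, which was higher by 0.35 on the log2 scale without reaching the fold limit. The pregnancy-specific glycoproteins PSG9 (1.35) and PSG4 (0.64), which are near-identical to their neighbours, and the relaxin-family hormone INSL4 (0.79) completed the calls, whereas PSG1 (-0.019), PSG2 (0.027) and PSG6 (0.094) were not called. SLC13A4, a sulfate transporter, was lower in both treated libraries (1.01 and 1.21 against 0.482 and 0.532 CPM, log2 fold change -1.13) without passing the test, and PGF was at -0.25. With a GC trend removed, 8 members were up and 1 was down. Without GSK-LSD1 replicate 1 the edgeR adjusted p was 0.104 for INSL4 and 0.0613 for PSG4, both then not called, and INSL4 was also lost without GSK-LSD1 replicate 2 and PSG4 without Vehicle replicate 1.

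Epithelial serine proteases and their inhibitors gave 5 calls of 21 tested, all up and all at low counts, where 2.53% of all tested genes rose. PRSS8, prostasin, had 8 and 13 counts in the Vehicle libraries against 38 and 35 in the GSK-LSD1 libraries. HPN, hepsin, had 4 and 4 counts in the Vehicle libraries against 30 and 23 in the GSK-LSD1 libraries. SPINT2, the inhibitor of both of these proteases, had 38 and 22 counts in the Vehicle libraries against 80 and 87 in the GSK-LSD1 libraries, and PRSS22 (1.44) and PRSS36 (1.05) were the others. The groups did not overlap in any of the 5, and none was called in the fit over all 8 libraries. Without GSK-LSD1 replicate 1, PRSS8, PRSS22 and HPN were not called.

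Keratins, the intermediate filaments of epithelial cells, moved in both directions, with 3 of 19 tested members up and 3 down. Over all tested genes 2.53% rose and 2.04% fell. In the fit over all 8 libraries 0 were up and 1 was down. KRT17, a keratin of basal and stressed epithelium, had 148 and 136 CPM in Vehicle and 265 and 259 CPM in GSK-LSD1, log2 fold change 0.89 ± 0.0553 (SE), edgeR adjusted p = 4.94e-06. KRT16 (1.28) and KRT34 (2.14) also rose from low levels. KRT7, the simple epithelial keratin of ducts, had 889 and 876 CPM in Vehicle and 576 and 519 CPM in GSK-LSD1, log2 fold change -0.69 ± 0.0529 (SE), edgeR adjusted p = 2.19e-05. The simple epithelial keratins KRT8 (2705 and 2618 against 2164 and 2155 CPM, log2 fold change -0.30) and KRT18 (1864 and 1793 against 1357 and 1324 CPM, log2 fold change -0.45) were lower in both treated libraries without reaching the fold limit. KRT81 fell (-0.80), and KRT5 had 21 and 57 counts in the Vehicle libraries against 1 and 0 in the GSK-LSD1 libraries, at least 11.1-fold lower with the treated libraries at the floor of 3 counts. Of the basal-like pancreatic cancer markers 5 of 15 rose and 2 fell (2.53% and 2.04% of all tested genes did). Those that rose included the FGF-binding protein FGFBP1 (1.68) and the epithelial factor TP63 (1.97), which had 5 to 25 counts per library. KRT5 was 1 of the 2 that fell. By DESeq2 3 of the list rose and 1 fell, and in the fit over all 8 libraries 0 rose and 1 fell. Of 12 classical markers, TSPAN8 rose (1.86) and the factor GATA6 fell (-0.81), 1 gene each way, to be read against the same shares of all tested genes. KRT81 lost its call without GSK-LSD1 replicate 2, and TP63 and GATA6 lost theirs without either GSK-LSD1 library and without Vehicle replicate 1.

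The downregulated gene with the smallest p was H19 (chr11:1995176-2001466), an imprinted long noncoding RNA of the IGF2 locus. It had 3397 and 3168 CPM in Vehicle and 1200.3 and 1187 CPM in GSK-LSD1, log2 fold change -1.46 ± 0.0408 (SE), edgeR adjusted p = 1.58e-08. The treated libraries held about the same level as each other, far under both controls, in a gene that overlaps MRPL23 on the opposite strand. IGF-binding proteins hold the growth factors IGF1 and IGF2 outside the cell. IGFBP3, the main carrier in blood, had 639.8 and 562 CPM in Vehicle and 224 and 244 CPM in GSK-LSD1, log2 fold change -1.36 ± 0.0667 (SE), edgeR adjusted p = 1.28e-06. IGFBP6, which prefers IGF2, had 86.7 and 76.9 CPM in Vehicle and 43.7 and 45.2 CPM in GSK-LSD1, log2 fold change -0.88 ± 0.0714 (SE), edgeR adjusted p = 2.97e-05. IGFBP1 had 16.4 and 13.6 CPM in Vehicle and 5.30 and 4.88 CPM in GSK-LSD1, log2 fold change -1.56 ± 0.136 (SE), edgeR adjusted p = 4.73e-05. Of the 15 tested genes of the IGF system, a list written after these calls were seen, 4 fell and none rose, and H19 was the only 1 of them kept in the fit over all 8 libraries. Over all tested genes 2.04% fell.

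Genes of vitamin A handling moved in both directions, with more decreases than increases, again in a list written after the calls were seen. Retinol is taken up through STRA6, oxidised to retinal by RDH10 and then to retinoic acid by the ALDH1A enzymes, returned to retinol by DHRS3 and degraded by the CYP26 enzymes, and retinoic acid induces several of these genes, including STRA6, DHRS3, CYP26A1 and CYP26B1. Of 23 tested members 5 fell and 2 rose, where 2.04% of all tested genes fell and 2.53% rose. STRA6 had 167 and 169 CPM in Vehicle and 89.9 and 92.1 CPM in GSK-LSD1, log2 fold change -0.89 ± 0.0493 (SE), edgeR adjusted p = 2.22e-06. CYP26B1 had 23.9 and 24.9 CPM in Vehicle and 6.48 and 7.01 CPM in GSK-LSD1, log2 fold change -1.86 ± 0.105 (SE), edgeR adjusted p = 2.55e-06. RDH10 (90.3 and 70.02 against 48.5 and 49.6 CPM, log2 fold change -0.71) and DHRS3 (101 and 95.1 against 68.8 and 61.5 CPM, log2 fold change -0.59) fell less, as did the receptor-interacting repressor NRIP1 (28.7 and 33.98 against 19.8 and 18.7 CPM, log2 fold change -0.70). The receptors RARA (-0.45) and RXRA (-0.25) were lower in both treated libraries under the fold limit. ALDH1A2, a retinal dehydrogenase, rose from a low level (26 and 26 counts in the Vehicle libraries against 56 and 52 in the GSK-LSD1 libraries), and RDH11 rose too (log2 fold change 0.61 ± 0.0543 (SE), edgeR adjusted p = 5.49e-05), while ALDH1A3 was at -0.041. Without Vehicle replicate 1, RDH10 was at -0.51 and DHRS3 at -0.54, both no longer called, NRIP1 was at -0.58 and not called without Vehicle replicate 2, DHRS3 was also lost without GSK-LSD1 replicate 2, and ALDH1A2 lost its call without GSK-LSD1 replicate 1. CYP24A1, which degrades vitamin D, fell (log2 fold change -1.51 ± 0.185 (SE), edgeR adjusted p = 0.000401).

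Several further downregulated genes had large, even changes. LBH, a developmental transcription cofactor, had 50.4 and 53.4 CPM in Vehicle and 19.9 and 20.6 CPM in GSK-LSD1, log2 fold change -1.36 ± 0.073 (SE), edgeR adjusted p = 1.84e-06. TXNIP, the thioredoxin inhibitor that senses glucose, had 230.2 and 258 CPM in Vehicle and 129 and 131 CPM in GSK-LSD1, log2 fold change -0.91 ± 0.0606 (SE), edgeR adjusted p = 8.99e-06. VSIR, an immune checkpoint protein, had 46.9 and 45.2 CPM in Vehicle and 21.7 and 22.7 CPM in GSK-LSD1, log2 fold change -1.05 ± 0.0721 (SE), edgeR adjusted p = 1.05e-05. In all 3 the treated libraries lay below both controls, as the rule for naming them required, and close to each other. COMP, a matrix protein of cartilage, had 13.7 and 13.4 CPM in Vehicle and 4.11 and 3.46 CPM in GSK-LSD1, log2 fold change -1.83 ± 0.133 (SE), edgeR adjusted p = 1.5e-05, and ATOH8, a basic helix-loop-helix factor, had 99.9 and 88.3 CPM in Vehicle and 48.2 and 44.1 CPM in GSK-LSD1, log2 fold change -1.03 ± 0.0752 (SE), edgeR adjusted p = 1.53e-05. TMEM106B, a lysosomal membrane protein, went against most lysosomal genes (64.9 and 66.8 against 37.9 and 37.9 CPM, log2 fold change -0.80), and the membrane protein PALM also fell (-0.67). PALM was not called once a trend over GC content was removed (-0.46).

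Signalling and patterning genes contributed scattered decreases, to be read against the 2.04% of all tested genes that fell and the 2.53% that rose. WNT5A, a noncanonical WNT ligand, had 161 and 142 CPM in Vehicle and 79.4 and 80.4 CPM in GSK-LSD1, log2 fold change -0.92 ± 0.0634 (SE), edgeR adjusted p = 1.05e-05, and WNT6 fell as well (62 and 46 counts in the Vehicle libraries against 18 and 14 in the GSK-LSD1 libraries, log2 fold change -1.56), in all 2 of 34 tested WNT pathway genes. ID1, a BMP-induced inhibitor of differentiation, had 359.9 and 261 CPM in Vehicle and 181 and 165 CPM in GSK-LSD1, log2 fold change -0.84 ± 0.116 (SE), edgeR adjusted p = 0.00077, and INHBA, an activin subunit, rose (1.09), so that of 33 TGF-beta and BMP genes 1 went each way. WNT6 lost its call without either GSK-LSD1 library, and INHBA lost its call without either GSK-LSD1 library and without Vehicle replicate 1. Among immediate early and AP-1 genes, 4 of 24 fell and none rose. JUNB had 303 and 226 CPM in Vehicle and 149 and 146 CPM in GSK-LSD1, log2 fold change -0.84 ± 0.104 (SE), edgeR adjusted p = 0.000428. KLF4 had 159 and 156 CPM in Vehicle and 105 and 96.98 CPM in GSK-LSD1, log2 fold change -0.64 ± 0.0543 (SE), edgeR adjusted p = 3.8e-05. FOSB (-0.66) and JUND (-0.85) were less secure, since JUND had 255 and 121 against 102 and 105 CPM with the second Vehicle library close to the treated ones, and without Vehicle replicate 1 it was at -0.22 and not called. FOSB and JUND also lost their calls without either GSK-LSD1 library. FOS was at -0.10. None of the 4 immediate early and AP-1 calls, JUNB and KLF4 included, held in the fit over all 8 libraries, and 2 held by DESeq2.

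HOX genes, which set position along the body axis, gave 3 calls of 28 tested, all down, with 7 of the 28 above 0 and a median of -0.24. Over all tested genes 2.04% fell and 49.0% lay above 0. By DESeq2 1 of the 28 fell, and in the fit over all 8 libraries 0 did. HOXC13 had 94.6 and 85.3 CPM in Vehicle and 55.99 and 57.2 CPM in GSK-LSD1, log2 fold change -0.67 ± 0.0657 (SE), edgeR adjusted p = 0.000104, while HOXA5 (-1.05) and HOXB5 (-0.67) had few counts, each of the 3 overlaps an antisense gene, and HOXA5 and HOXB5 were not called without GSK-LSD1 replicate 1, nor HOXA5 without GSK-LSD1 replicate 2 or Vehicle replicate 1. SOX4, a factor of progenitor cells, fell (132 and 118 CPM in Vehicle and 78.6 and 82.5 CPM in GSK-LSD1, log2 fold change -0.63 ± 0.0646 (SE), edgeR adjusted p = 0.000127), and SOX18 fell at a low level (-1.18). SOX4 was at -0.55 and not called without Vehicle replicate 1, and SOX18 was lost without either GSK-LSD1 library. Medians of the FOX (-0.17), KLF (-0.20) and WNT and FZD families (-0.26) were also below 0, with 1 of 36, 1 of 13 and 2 of 21 tested members called, all down, against 2.04% of all tested genes. These are small counts, and the FOX share is near that of all genes. The BH3-only genes BMF (23.1 and 20.9 CPM in Vehicle and 9.02 and 9.27 CPM in GSK-LSD1, log2 fold change -1.27 ± 0.104 (SE), edgeR adjusted p = 3.23e-05) and HRK (-0.64), which promote apoptosis, were the only calls among 18 tested BCL2 family members, and HRK lost its call without either GSK-LSD1 library or without Vehicle replicate 2.

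Cell-cycle genes were slightly lower with almost no calls, where 2.53% of all tested genes rose and 2.04% fell. None of 44 mitosis genes was called in either direction, but 38 had a log2 fold change at or under 0 (51.0% of all tested genes were below 0). In 32 both treated libraries lay under both controls (30.2% of all tested genes did). At any fold, 14 passed an adjusted p of 0.05, where 8.87% of all tested genes did so with a lower and 9.86% with a higher level. Their median was -0.14. MKI67, the proliferation antigen, had 406 and 412 CPM in Vehicle and 340.4 and 363 CPM in GSK-LSD1 (log2 fold change -0.22), TOP2A had 529 and 564 against 502 and 499 CPM (-0.13) and CCNB1 had 189.8 and 192 against 179 and 175 CPM (-0.11). Of 48 replication genes 1 was called, CDT1, which loads the MCM helicase, with 261 and 259.9 CPM in Vehicle and 152 and 167 CPM in GSK-LSD1 and log2 fold change -0.70 ± 0.0557 (SE), edgeR adjusted p = 2.68e-05, and this call was lost with a GC trend removed (log2 fold change -0.58), which left none of the 48 called. MYC was at -0.16. The 37 nuclear-encoded subunits of respiratory complex I shifted the other way, with a median of 0.23, 35 above 0 against 49.0% of all tested genes, and none called.

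Lists tied to LSD1 itself held few calls. At the 4.57% of all tested genes that were called, lists of this size would also hold few. The counts below therefore do not set these lists apart from other genes. None of 19 tested LSD1-CoREST complex genes was called, with log2 fold changes from -0.34 to 0.47. RCOR1 had 64.8 and 60.02 CPM in Vehicle and 66.1 and 68.5 CPM in GSK-LSD1 (log2 fold change 0.11), HDAC1 was at -0.021 and HDAC2 at -0.14. KDM1B, the paralogue LSD2, was highest, with 20.5 and 20.3 CPM in Vehicle and 28.7 and 27.6 CPM in GSK-LSD1 and log2 fold change 0.47 ± 0.0824 (SE), edgeR adjusted p = 0.00339, under the fold limit. None of 22 KMT2 and COMPASS genes was called, KMT2A being at -0.19 and KMT2D at -0.027. Of 20 genes known to rise in myeloid cells under LSD1 inhibition, 11 were tested and none was called, and CD86 had 23 and 42 counts in the Vehicle libraries against 23 and 26 in the GSK-LSD1 libraries, while LY96, ITGAM and GFI1B had too few counts to test. GFI1 had 152 and 146 counts in the Vehicle libraries against 123 and 87 in the GSK-LSD1 libraries, and its difference was not significant (edgeR adjusted p = 0.264). Of 32 tested neuronal targets of REST and CoREST, DNER rose (11.9 and 11.1 CPM in Vehicle and 23.6 and 22.6 CPM in GSK-LSD1, log2 fold change 1.01 ± 0.0971 (SE), edgeR adjusted p = 9.09e-05) and MAPK8IP1 fell (-1.38), 1 in each direction. MAPK8IP1 was not called without GSK-LSD1 replicate 1.

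Some decreases ran with the composition of the libraries. Transcript GC content was known for 91.1% of tested genes, with a median of 48.9%, and it was 59.6% for downregulated and 48.5% for upregulated genes. In the highest decile of GC content 7.86% of genes were down, in the lowest 0.273%, and the median log2 fold change went from 0.048 in the lowest decile to -0.14 in the highest. Within a group the same measure moved too. The median log2 ratio of the first to the second Vehicle library went from -0.033 to 0.091, and that of the first to the second GSK-LSD1 library from 0.040 to -0.048. Of the 328 downregulated genes, 72 had the first Vehicle library over 1.5 times the second, 17 of the 406 upregulated genes did, and so did 546 of all 16059 tested genes. The second Vehicle library was over 1.5 times the first for 4 downregulated and 25 upregulated genes. With a GC trend removed from each library, 399 genes were up and 240 down among those with a GC value, and the part of GC content in the remaining calls was not tested. The sterol synthesis count was then 16 and the lysosomal hydrolase count 4.

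Of the 10 largest downregulated folds among genes with a mean of at least 1 CPM, 8 were in genes whose first Vehicle library was far above the second. RAET1E-AS1 had 213 and 28 counts in the Vehicle libraries against 8 and 7 in the GSK-LSD1 libraries, ADPGK-AS1 had 96 and 40 counts in the Vehicle libraries against 13 and 6 in the GSK-LSD1 libraries, and LRRC26 had 434 and 83 counts in the Vehicle libraries against 66 and 35 in the GSK-LSD1 libraries. HRURF (16.8 and 5.16 against 2.06 and 2.57 CPM), FAM229A (8.14 and 2.20 against 1.01 and 0.887 CPM), LOC112268186 (11.1 and 3.95 against 1.31 and 1.33 CPM), LOC112268052 (21.4 and 5.93 against 2.85 and 3.15 CPM) and LOC112268444 (2.71 and 0.659 against 0.263 and 0.444 CPM) were the others. Without Vehicle replicate 1 the edgeR adjusted p was 0.0609 for RAET1E-AS1, 0.283 for LRRC26 and 0.459 for LOC112268444, which were then not called. The other 5 kept their call without that library, at log2 fold changes of -1.79 for ADPGK-AS1, -1.15 for HRURF, -1.21 for FAM229A, -1.57 for LOC112268186 and -0.98 for LOC112268052. All 8 lost their call without either GSK-LSD1 library and in the fit over 8 libraries. Of 488 tested antisense RNAs 20 fell and 7 rose (4.10% and 1.43%, against 2.04% and 2.53% of all tested genes). The 20 became 6 to 25 when 1 library was left out (13 without Vehicle replicate 1), 12 by DESeq2 and 0 in the fit over 8 libraries, and the 7 became 4 to 11, 5 and 1.

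Ribosomal RNA was lower in the treated libraries. RNA45SN1, an annotated copy of the 45S precursor, had 677 and 479 CPM in Vehicle and 266 and 251 CPM in GSK-LSD1, log2 fold change -1.16 ± 0.12 (SE), edgeR adjusted p = 0.000137, and RNA28SN3, a 28S copy, had 29.3 and 25.8 CPM in Vehicle and 6.65 and 3.64 CPM in GSK-LSD1, log2 fold change -2.42 ± 0.192 (SE), edgeR adjusted p = 2.75e-05. The copies are near identical, so the split between them is uncertain, and these poly(A)-selected libraries hold what rRNA escaped selection. RPL13, a ribosomal protein gene, had 2118 and 1466 CPM in Vehicle and 1130.1 and 1093 CPM in GSK-LSD1, log2 fold change -0.69 ± 0.121 (SE), edgeR adjusted p = 0.00338. It was not called without Vehicle replicate 1 (-0.40) or without either GSK-LSD1 library. Of 109 ribosomal protein genes 2 were called, both down, near the 2.04% of all tested genes that fell, with a median of -0.042. In the other direction, RPPH1, the RNA of RNase P, had 5 and 13 counts in the Vehicle libraries against 1805 and 11 in the GSK-LSD1 libraries and RN7SL1, the signal recognition particle RNA, had 4166 and 5752 counts in the Vehicle libraries against 22511 and 4294 in the GSK-LSD1 libraries. Both non-polyadenylated RNAs passed the limits for upregulation although they were high in the first GSK-LSD1 library only. The groups of RN7SL1 overlapped, and the second GSK-LSD1 library of RPPH1 was close to the second Vehicle library (0.202 and 0.476 against 79.02 and 0.488 CPM). Without the first GSK-LSD1 library RPPH1 was at 0.50 and RN7SL1 at 0.0093, neither called.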

How the data were processed

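The authors extracted total RNA, selected poly(A) RNA, sequenced paired reads of 150 bases, aligned them to hg38 with HISAT2 at default settings and counted them per gene with HTSeq. Tool versions, annotation and use of strand in counting are not given in the sources used here. The deposited table holds raw read counts per gene, which were used here, and TPM values that the authors computed per library, which were not used. Libraries held 22581935 to 27054876 counts.

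Groups came from the labels. The members and lists were chosen with earlier results of these data known, and 4 of the 63 lists were added after values were seen. GSK-LSD1 was compared with Vehicle in edgeR 4.0.16 (R 4.3.3) by the two-sided quasi-likelihood test with TMM factors, filterByExpr at a minimum count of 10 and Benjamini-Hochberg adjustment over 16059 genes. Named genes were KDM1A, KLLN, the 15 of smallest p and the 10 of largest fold in each direction (mean of at least 1 CPM for the latter) and called or abundant members of lists and families. The 15 were taken only among called genes with both GSK-LSD1 libraries beyond both Vehicle libraries, so that trait was required of them. Lists were described by counts and medians, with no set test. Some list members are counted but not reported by name here. On simulated counts for this comparison, 99% of genes changed 1.8-fold and 100% of those changed 2.83-fold were recovered, with 5 unchanged genes called among 16059. The changed genes were drawn only among genes with higher counts, and the simulated spread was the trend fitted to these libraries. Recovery in genes with few counts was not tested. Alternatives used DESeq2 1.42.0 and limma 3.58.1 on log2(CPM + 1), other scalings, filters and limits, and the removal of single libraries.

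Overlapping genes were taken from the coordinates deposited with the counts, among genes with a mean of at least 10 counts. Transcript GC content came from GENCODE 44, and promoter sequences from RefSeq (GRCh38.p14), with an entry for 11983 of the tested genes.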

Additional observations from a re-analysis of the deposited data

How the results depend on the processing

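The reported 406 upregulated and 328 downregulated genes were set against other settings. DESeq2 called 282 up and 185 down, all of them among the reported genes, and 1 fit over all 8 libraries called 85 up and 15 down. A fold above 2 left 182 up and 115 down, no fold limit gave 1583 up and 1424 down, and unadjusted p gave 576 up and 510 down. Leaving out 1 library gave 289 to 456 up and 150 to 551 down, the lowest down without GSK-LSD1 replicate 1 (150), then 161 without GSK-LSD1 replicate 2, and the highest without Vehicle replicate 2 (551); the group left with 1 library was assumed to vary like the other. A similar count without 1 library did not mean the same genes, since reported calls were lost in both directions each time. The causes were not tested, apart from the limits, which by construction change the counts. Other size factors, library totals, other filters and limma kept both counts within 1.5 times, as did removal of a GC trend, chosen after the data were seen, at 399 up and 240 down, of which 352 and 222 were among the reported genes.

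Of 187 called genes that were named or listed, 116 kept their call under every setting other than the fit over 8 libraries and the fold above 2. Those 2 settings removed the most calls. The fit over 8 libraries lost 126 of the 187, and the fold above 2 lost 97. None of these 187 changed sign. Same-numbered libraries did not deviate together (correlation of deviations from the group means -0.1247 over 10160 genes over 10 CPM), so the numbers were not taken as pairs. With the replicate number as a block, 420 genes were up and 343 down, and no named call was lost. The crossed pairing, also added after the data were seen, gave 377 up and 311 down. A promoter window of 150 bases before the start moved 87 of 256 motif shares. With 2 libraries a group, depth and replicate number limit changes in genes with few counts.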

Other observations

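Further lists, chosen with earlier results known, are to be read against 2.53% up and 2.04% down over all tested genes. Some shares were near these and others higher, among them transporters of amino acids and glucose (11.1% up). Mucin and secretory genes (15.4% up) and Notch genes (10% down), described below, were also higher. Each share rests on a small number of genes. Of 39 tested glycolysis and hypoxia genes 1 rose and 1 fell, the latter TXNIP. ALDOC, a glycolytic aldolase, had 89.4 and 97.2 CPM in Vehicle and 155 and 162 CPM in GSK-LSD1, log2 fold change 0.76 ± 0.0567 (SE), edgeR adjusted p = 1.7e-05. Of 17 tested genes of fatty acid oxidation and PPAR targets, PPARGC1A, a coactivator of mitochondrial genes, was the only call, with 2.91 and 3.70 CPM in Vehicle and 6.61 and 7.10 CPM in GSK-LSD1, log2 fold change 1.05 ± 0.164 (SE), edgeR adjusted p = 0.00173. Of 27 amino acid and glucose transporters 3 rose and none fell, among them the fructose transporter SLC2A5, with 13 and 11 counts in the Vehicle libraries against 48 and 32 in the GSK-LSD1 libraries, which was not called without GSK-LSD1 replicate 1. None of 22 YAP and TEAD targets, 19 ERK feedback genes or 18 circadian clock genes was called.

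Among epithelial and matrix genes, CLDN1, a claudin of tight junctions, was the only call of 10 tested claudins, with 3.76 and 4.47 CPM in Vehicle and 11.6 and 10.3 CPM in GSK-LSD1, log2 fold change 1.41 ± 0.142 (SE), edgeR adjusted p = 0.00012, and it was called under every setting tried. Of 13 tested mucin and secretory genes 2 rose, both encoding enzymes that build mucin-type glycans. GCNT3 had 3.72 and 3.44 CPM in Vehicle and 7.84 and 8.03 CPM in GSK-LSD1, log2 fold change 1.15 ± 0.142 (SE), edgeR adjusted p = 0.000427, and B3GNT3 had 16.3 and 16.3 CPM in Vehicle and 24.95 and 27.5 CPM in GSK-LSD1, log2 fold change 0.69 ± 0.0916 (SE), edgeR adjusted p = 0.000657. The mucin MUC3A fell (-0.96), but was not called without either GSK-LSD1 library or without Vehicle replicate 1. Of 41 tested epithelial-mesenchymal and matrix genes 1 rose and 2 fell. TIMP3, an inhibitor of matrix metalloproteases whose gene overlaps SYN3 on the opposite strand, had 162 and 146 CPM in Vehicle and 93.4 and 99.1 CPM in GSK-LSD1, log2 fold change -0.68 ± 0.0612 (SE), edgeR adjusted p = 5.86e-05. Of 20 Notch pathway genes 2 fell and none rose, and LFNG, a glycosyltransferase that modifies Notch receptors, had 29.9 and 27.1 CPM in Vehicle and 17.1 and 17.1 CPM in GSK-LSD1, log2 fold change -0.74 ± 0.0897 (SE), edgeR adjusted p = 0.000389, while HES4 (-0.64) was not called without Vehicle replicate 1 or without either GSK-LSD1 library.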
